A study of Rattus norvegicus with 9 samples.

Results

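The 5 members of the voltage-gated channel superfamily are described, the calcium channel genes Cacna1b and Cacna1h, the sodium channel family gene Scn7a and the potassium channel genes Kcnh2 and Kcnh3. They are 5 of the 32662 genes in the count table, taken by name from the authors' tables of genes that differed with VPA. Those names were therefore chosen by the values of VPA and control libraries compared here. The authors' deposited DESeq2 table lists genes up to an adjusted p of 0.05, and no gene outside the authors' tables carries a name, so values just outside that limit are not analysed here. For that reason the VPA values of these 5 genes are a description, without a test. RNA came from RN46A cells, a rat raphe line with serotonergic features that was immortalised with a temperature-sensitive T antigen. It is a cultured line, so it stands for neurons only in part. All cells grew at 33 °C in 5% serum and then differentiated for 72 h at 39 °C in 1% serum. For a further 72 h they received 0.5 mM sodium valproate (VPA), 0.5 mM lithium, or no drug as controls, with 3 libraries in each of the 3 groups. Both drugs are mood stabilisers, and VPA also inhibits histone deacetylases. Library totals ran from 9580591 to 13030300 counts, and 12719 genes had enough counts to be tested. The labels do not call the libraries of a group separate cultures, and errors and p-values measure the spread between these libraries alone, which may be technical.

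Voltage-gated channels open when the membrane potential changes and let a kind of ion pass. Calcium channels of the N type, whose pore is made by Cacna1b, sit at nerve terminals and admit the calcium that triggers transmitter release. T-type channels such as that of Cacna1h open near the resting potential and shape rhythmic firing. Scn7a belongs to the sodium channel family by sequence but is known as a sensor of the sodium concentration, so the voltage-gated label does not hold for it in the strict sense. Kcnh2 (also called ERG) and Kcnh3 (ELK type) belong to the ether-a-go-go family of potassium channels. Kcnh2 carries a current that ends the cardiac action potential and also steadies neuronal firing, and Kcnh3 is best known from the forebrain.

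RefSeq promoter windows of 300 bases (build GRCr8, set from 250 before to 50 after the start position used in the table) were at hand for 2 of the 5 genes, Cacna1b and Scn7a. They are shown because both genes stood higher in all VPA libraries while their start regions differ widely in base composition. RefSeq's span of a gene can reach beyond that position, and most of the Scn7a window lies within the span. The part of each window that lies before the span, 243 bases for Cacna1b and 80 for Scn7a, is shown 5′ to 3′ on the gene's strand, with capitals for GC boxes (GGGCGG) and CCAAT boxes (CCAAT) on either strand, which do not overlap each other. Cacna1b is at chr3:27944293-27944535 and Scn7a at chr3:71846455-71846534, both on the minus strand.
Cacna1b: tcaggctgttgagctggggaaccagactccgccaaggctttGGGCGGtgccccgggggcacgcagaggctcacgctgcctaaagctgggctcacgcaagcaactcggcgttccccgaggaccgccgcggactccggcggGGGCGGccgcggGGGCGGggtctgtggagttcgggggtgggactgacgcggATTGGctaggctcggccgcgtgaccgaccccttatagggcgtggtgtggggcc
Scn7a: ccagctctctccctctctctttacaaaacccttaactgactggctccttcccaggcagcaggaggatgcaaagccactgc
The 300-base window of Cacna1b was 72.0% G and C, a share above that of 94.1% of 33469 rat windows of the same length. It held 34 CpG dinucleotides, 3 GC boxes and 1 CCAAT box. The Scn7a window was 56.0% G and C and held 2 CpG dinucleotides, where the median window had 7. It held 1 GC box, which lies outside the 80 bases shown. GC boxes occurred in 33.1% of all windows and CCAAT boxes in 37.5%. Neither window held TATAAA on either strand, which 14.2% of windows did. These matches describe letters only and were not tied to any binding.

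Cacna1b (ENSRNOG00000004560) was the most even of the 5 genes among VPA libraries. It stood at 10.2, 9.75 and 8.51 CPM (counts scaled to a common library size, with TMM factors) with VPA, at 0.948, 0.789 and 1.39 CPM with lithium, and at 1.54, 0.760 and 1.51 CPM in control. Every VPA library lay far above the other 6, while lithium and control overlapped. In bulk RNA such as this, fewer cells of a type and less RNA per cell cannot be told apart. The means were 9.49 ± 0.881 CPM with VPA, 1.04 ± 0.309 CPM with lithium and 1.27 ± 0.443 CPM in control (SD, n = 3 each). Set against control, the log2 fold change with VPA was 2.87 ± 0.32 (SE, edgeR), a fold of 7.32. The counts behind these levels were 328 with VPA, 38 with lithium and 41 in control. The coefficient of variation among VPA libraries was 9.28% for Cacna1b, and it lay between 17.5% for Cacna1h and 33.4% for Scn7a among the others.

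Cacna1h (ENSRNOG00000033893), of the T-type calcium channel, stood at 19.0, 26.0 and 20.1 CPM with VPA, at 6.55, 7.54 and 9.94 CPM with lithium and at 4.08, 4.88 and 9.60 CPM in control. VPA libraries were again all above the rest. Control 3 was nearly at the level of lithium 3 and well above controls 1 and 2. The means were 21.7 ± 3.80 CPM with VPA, 8.01 ± 1.74 CPM with lithium and 6.19 ± 2.98 CPM in control (SD, n = 3 each), and the log2 fold change of VPA over control was 1.80 ± 0.31 (SE). Without control 3 it was 2.28.

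Scn7a (ENSRNOG00000029342), the sodium sensor, stood at 6.01, 3.64 and 3.37 CPM with VPA, at 0.775, 0.526 and 1.46 CPM with lithium and at 1.54, 1.19 and 0.978 CPM in control. The VPA libraries were all above the others, with VPA 1 the highest. Their mean was 4.34 ± 1.45 CPM, against 0.922 ± 0.486 CPM with lithium and 1.24 ± 0.285 CPM in control (SD, n = 3 each). The log2 fold change of VPA over control was 1.81 ± 0.40 (SE), and 1.49 without VPA 1.

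Kcnh2 (ENSRNOG00000009872) stood at 9.28, 13.5 and 16.3 CPM with VPA, at 2.84, 3.86 and 5.24 CPM with lithium and at 3.99, 4.56 and 7.20 CPM in control. Groups with VPA and without it did not overlap, but the gap from VPA 1 to control 3 was small. Replicate 3 was the highest library of each group, at 1.43 times the mean of replicates 1 and 2 with VPA, 1.56 times with lithium and 1.68 times in control. Replicate 3 was likewise the highest in all 3 groups for 16.9% of the genes tested. The means of Kcnh2 were 13.0 ± 3.53 CPM with VPA, 3.98 ± 1.20 CPM with lithium and 5.25 ± 1.71 CPM in control (SD, n = 3 each), with a log2 fold change of VPA over control of 1.31 ± 0.31 (SE).

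Kcnh3 (ENSRNOG00000057315) had the largest fold of the 5 genes and the fewest counts. With VPA it had 39, 36 and 71 counts, or 3.04, 3.86 and 5.70 CPM. With lithium it had 2, 0 and 2 counts, and in control 3, 0 and 6. The transcript was thus readily counted with VPA and close to the limit of detection in the other groups, where a count of 0 allows up to 3 counts, or 0.263 CPM in lithium 2 and 0.326 CPM in control 2. Summed over a group, VPA libraries held 146 counts and controls 9, 14.8 times as many after scaling, with a 95% exact counting interval of 7.57 to 32.9. Against the 4 counts with lithium the ratio was 38.0 (14.5 to 141). Such intervals and floors cover counting error only. The intervals are no test, since the gene was named for its difference between these VPA and control libraries. The fitted log2 fold change of VPA over control was 3.85 ± 0.62 (SE). Without control 3, which holds 6 of the 9 control counts, it was 4.75.

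**Figure D1:**
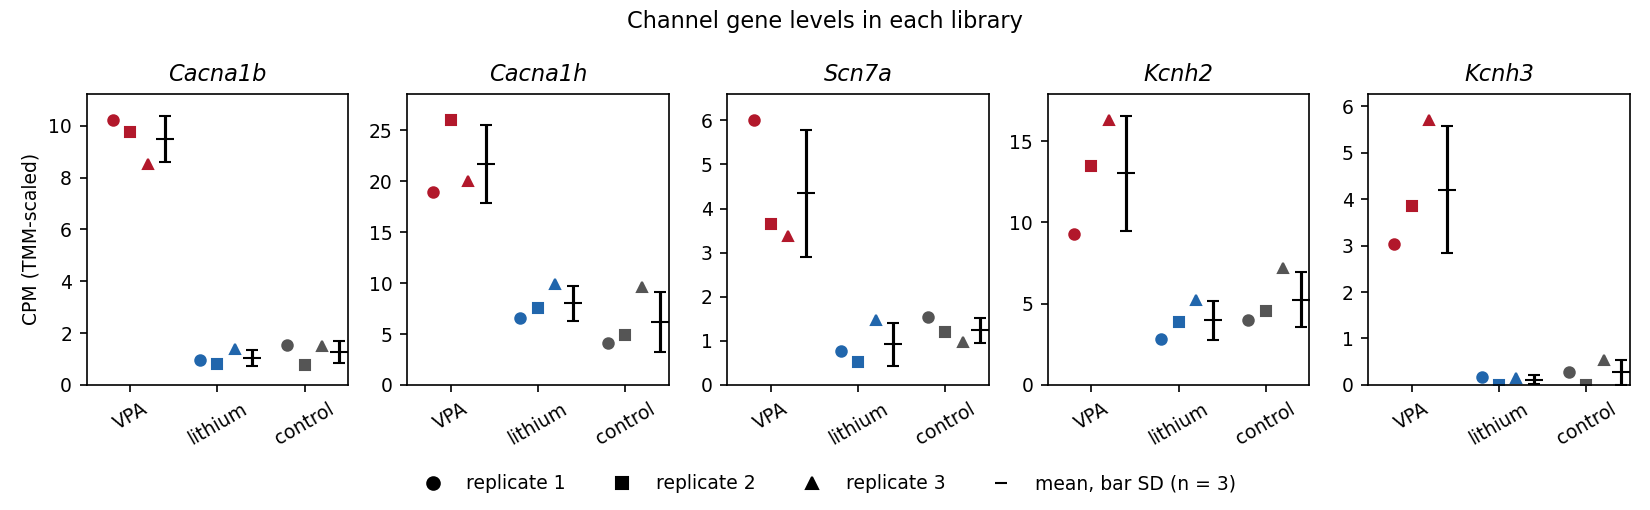
Level of each channel gene in CPM (y axis, from 0, its own scale per gene) in the VPA, lithium and control libraries (x axis). Point shapes mark replicates 1 to 3 and the bar gives mean and SD (n = 3). All VPA points lie above all lithium and control points for each of the 5 genes, with Cacna1b at 8.51 to 10.2 CPM with VPA.

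All 5 genes had VPA libraries above every control library, as 14.1% of the 12719 tested genes did. The same 5 had VPA libraries above every lithium library, as 15.8% of genes did. The members were chosen by their difference from control, so nothing is read from these counts. Among the 5 the log2 fold change of VPA over control ran from 1.31 to 3.85 with a median of 1.81, beside -0.01 over all genes tested and 0.90 over the 1246 tested genes with a symbol. In rising order they were Kcnh2, Cacna1h, Scn7a, Cacna1b and Kcnh3. Cacna1h and Scn7a lay within 1 SE of each other, and the other differences between genes were not tested. Control and VPA libraries with the same number deviated from their group means together, so the difference was also taken within each number. On the log2(CPM + 0.5) scale it was 2.39, 3.02 and 2.16 for Cacna1b in replicates 1, 2 and 3, and 2.09, 2.30 and 1.03 for Cacna1h. Scn7a differed by 1.67, 1.29 and 1.39, Kcnh2 by 1.12, 1.47 and 1.13, and Kcnh3 by 2.20, 3.12 and 2.59. All 15 differences were above 0, which follows from VPA libraries lying above every control library, so only their sizes add to the description. The difference for Kcnh2 was nearly the same in replicates 1 and 3, although replicate 3 had the higher level in both groups, and Cacna1h differed least in replicate 3, where the control was high. The added 0.5 CPM makes the values of Kcnh3 smaller than the fitted fold.

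**Figure D2:**
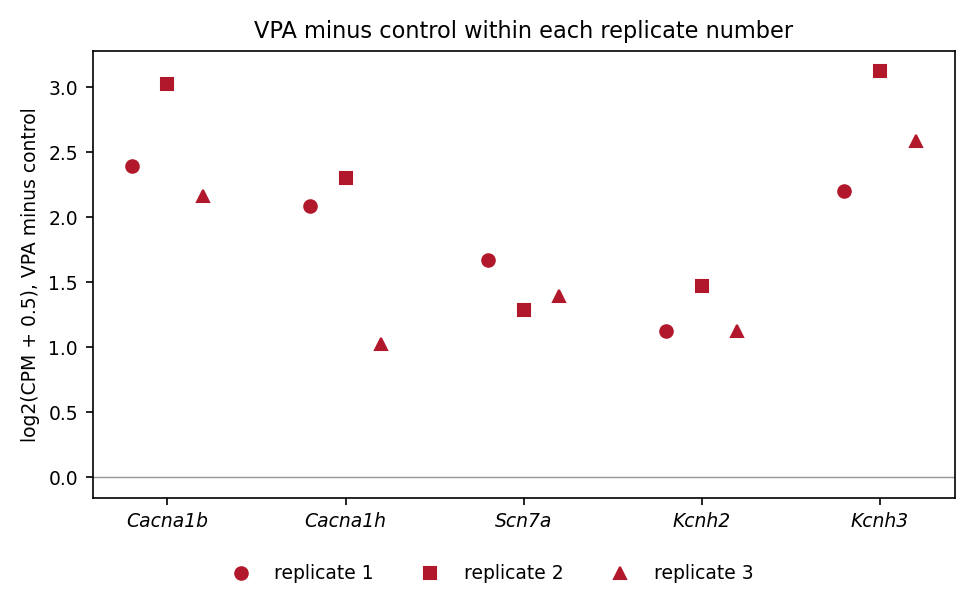
VPA minus control in log2(CPM + 0.5) (y axis) for the 5 channel genes (x axis), taken between libraries with the same replicate number (shapes). All points lie above 0, since no VPA library overlaps a control library for these genes, and replicate 3 of Cacna1h is the lowest at 1.03.

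Lithium against control asks whether the other mood stabiliser moves these genes. The lithium libraries had no part in choosing the members, though the control libraries did. None of the 5 genes passed the quasi-likelihood test of edgeR, adjusted by Benjamini-Hochberg over all genes (adjusted p = 1 for each), and the groups overlapped for each. No gene was called by edgeR, of 12719 tested (0%), or by DESeq2, of 20123. In edgeR 116 genes (0.912%) had an unadjusted p under 0.05. That share is smaller than a threshold of 0.05 gives when no gene differs, so the test was cautious here. The lack of calls therefore does not show a lack of effect. The log2 fold change was -0.29 ± 0.36 (SE) for Cacna1b, 0.37 ± 0.32 for Cacna1h and -0.40 ± 0.45 for Scn7a. For Kcnh2 it was -0.40 ± 0.33 and for Kcnh3 -1.27 ± 0.98. The 95% intervals of the difference ran from -1.07 to 0.49 for Cacna1b, from -0.32 to 1.06 for Cacna1h, from -1.38 to 0.57 for Scn7a and from -1.11 to 0.31 for Kcnh2. Kcnh3 had an interval of -3.41 to 0.88, so at 4 against 9 counts even a large decrease was not detectable at this depth.

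Between the drugs, VPA against lithium, the differences were 3.16 ± 0.32 for Cacna1b, 1.43 ± 0.31 for Cacna1h, 2.21 ± 0.41 for Scn7a, 1.70 ± 0.32 for Kcnh2 and 5.11 ± 0.70 for Kcnh3 (log2 ± SE). These share the VPA libraries with the comparison that chose the genes and are given without a test. Cacna1h is the 1 gene of the 5 whose lithium estimate lay above control, so it differed less from lithium than from control. The other 4 differed more.

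**Figure D3:**
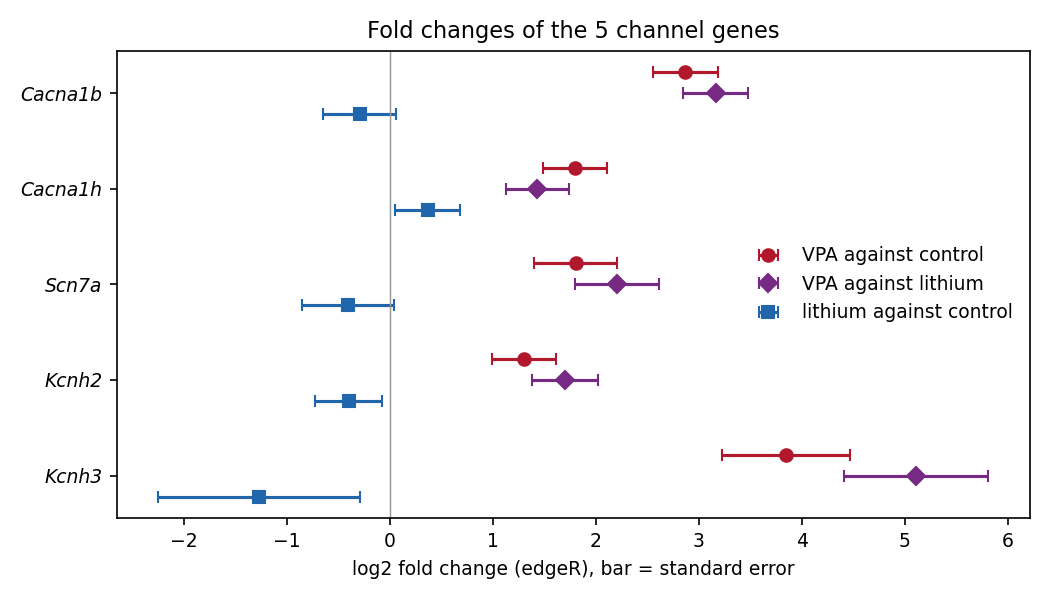
Fitted log2 fold change (x axis) with its SE (bars) for the 5 channel genes (rows) in 3 comparisons. VPA estimates run from 1.31 to 3.85 against control and from 1.43 to 5.11 against lithium, and lithium estimates from -1.27 to 0.37 against control.

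Levels can be compared between genes only per length, which the authors' deposited Cufflinks table gives as 1 FPKM value per group for 4 of the 5. In the authors' deposited table Kcnh2 stood at 4.20 FPKM with VPA and 2.00 FPKM in control, and Cacna1h at 4.09 FPKM with VPA and 1.75 FPKM in control. Lower by several fold were Cacna1b, at 0.980 FPKM with VPA and 0.153 FPKM in control, and Scn7a, at 0.891 FPKM with VPA and 0.204 FPKM in control, in the authors' deposited table. Kcnh2 and Cacna1h were thus the more abundant transcripts of the 4 in both groups. That table places Cacna1b on chromosome 3 from 1740023 to 1924924, Scn7a on chromosome 3 from 52775878 to 52877305, Kcnh2 on chromosome 4 from 7355213 to 7387253 and Cacna1h on chromosome 10 from 14727179 to 14789160. Which build they refer to is not stated in the sources used here, nor how starts are counted.

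The authors' deposited tables also give other estimates of VPA over control from the same libraries. In the authors' deposited DESeq2 table the log2 fold changes, rounded there to 1 decimal, were 2.3 for Cacna1b, 1.5 for Cacna1h, 1.3 for Scn7a, 1.1 for Kcnh2 and 2.4 for Kcnh3. Cufflinks values in the authors' deposited table correspond to 2.68 for Cacna1b, 1.23 for Cacna1h, 2.13 for Scn7a and 1.07 for Kcnh2. The direction was the same in each. The authors' deposited Salmon table lists 1 transcript for each of 4 genes, with effects turned here from natural log to log2. Transcript ENSRNOT00000043626 of Cacna1h had 1.84 ± 0.36 and ENSRNOT00000041096 of Scn7a 1.77 ± 0.49 in the authors' deposited table (SE), close to the gene-level fit. By the authors' deposited table, ENSRNOT00000048945 of Cacna1b had 4.46 ± 1.17 and ENSRNOT00000013800 of Kcnh2 4.60 ± 1.39. For Kcnh2 that is far above the gene-level 1.31 ± 0.31. Whether transcript use of Kcnh2 differs between groups was not tested, since other transcripts of the gene are not analysed here. Kcnh3 had the widest gap between gene-level estimates, 3.85 from edgeR against 2.4 in the authors' deposited DESeq2 table. DESeq2 run here on the counts gave 3.90 ± 0.69 for Kcnh3 (SE), where the SE in the authors' deposited table was 0.36. The deposited DESeq2 values were below those of edgeR for all 5 genes, and the reason was not tested.

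**Figure D4:**
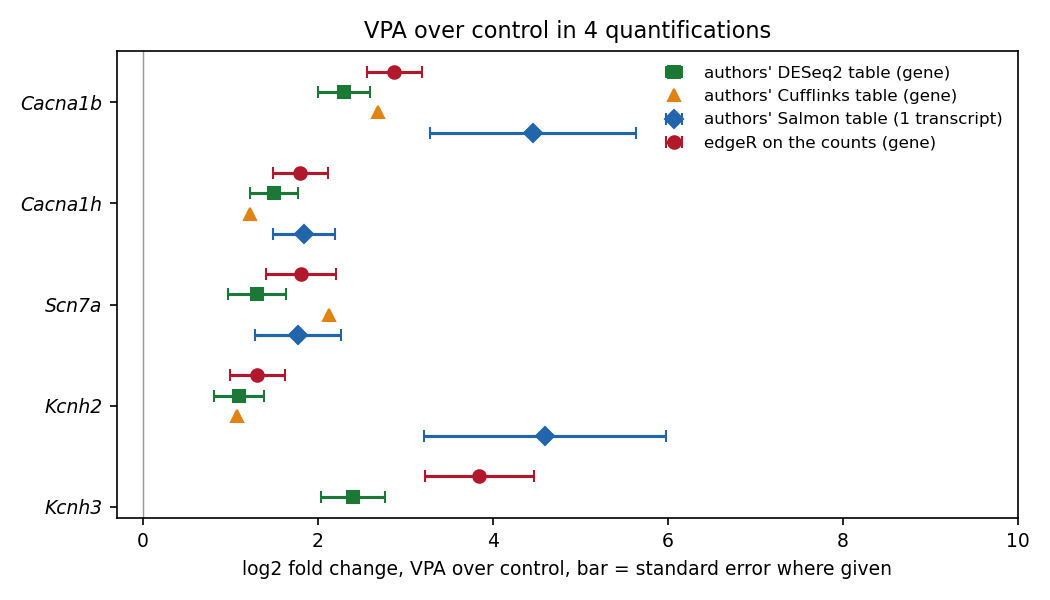
Log2 fold change of VPA over control (x axis) for the 5 channel genes (rows) from edgeR on the counts and from 3 tables of the authors, with SE bars where given. All estimates are above 0, and the Salmon transcript of Kcnh2 at 4.60 lies far from its gene-level values.

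Among the named genes of the wider family the picture was mixed. A list of 108 symbols of voltage-gated channel subunits and close relatives held 12 genes named with an identifier in the authors' tables, of which 7 are not described above. The other symbols had no identifier there and could not be followed in the counts, so most of the family was not examined. With VPA 3 of those 7 rose, 2 others fell and another 2 did not pass (edgeR, adjusted over all genes), where 5.71% of tested genes rose and 2.99% fell. Since the authors named these genes from the same libraries, this tally is no independent evidence. The same holds for the adjusted p-values of VPA against control given below for these 7 genes. Over all 1246 named genes 50.1% were called higher and 26.9% lower. The median log2 fold change of the 7 was 1.53. With the replicate number as a block, which pairs control and VPA libraries, 4 rose and 3 fell, where 8.45% and 5.24% of genes did.

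The rises were in pore subunits of sodium and calcium channels and in a beta subunit of potassium channels. Scn8a, a main sodium channel of axon initial segments, averaged 2.26 ± 0.342 CPM with VPA and 0.433 ± 0.263 CPM in control (SD, n = 3 each), a log2 fold change of 2.33 ± 0.42 (SE). Kcnab3, a cytoplasmic beta subunit of Kv1 channels, averaged 23.0 ± 3.55 CPM with VPA and 7.95 ± 1.51 CPM in control, a change of 1.53 ± 0.23. Their adjusted p-values were 0.0062 for Scn8a and 0.00236 for Kcnab3 (edgeR). Cacna1d, of an L-type calcium channel, changed by 1.85 ± 0.52 at an adjusted p of 0.0495 in edgeR's test. It lost its call without any 1 of the VPA or control libraries or lithium 1, with edgeR adjusted p from 0.0611 to 0.155. Kcna4, an A-type channel of the Kv1 group, had a log2 fold change of 1.78 ± 0.59 and did not pass (edgeR adjusted p = 0.0874). With the block its edgeR adjusted p was 0.0483 on all 9 libraries and 0.0169 on VPA and control alone. It was also called with no filter on low counts (edgeR adjusted p = 0.0359), and without control 1 its log2 fold change was 2.43.

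Called lower with VPA were an accessory subunit and a potassium channel opened by calcium, and an ERG-type channel leaned lower without a call in the main fit. Kcnip4, a calcium-binding partner of Kv4 channels, averaged 0.839 ± 0.268 CPM with VPA and 5.06 ± 1.54 CPM in control (SD, n = 3 each), and fell by 2.55 ± 0.39 on the log2 scale (SE, edgeR adjusted p = 0.00252). Kcnn4, a potassium channel opened by calcium rather than voltage, stood at 0.390, 0.428 and 0.161 CPM with VPA, at 1.03, 1.40 and 0.925 CPM with lithium and at 1.54, 1.85 and 2.58 CPM in control. It fell by 2.60 ± 0.45 with VPA (edgeR adjusted p = 0.00473). Each lithium library of Kcnn4 was also below each control, as for 1.57% of tested genes, but the change of -0.83 ± 0.37 did not pass (edgeR adjusted p = 1). In the authors' deposited lithium table Kcnn4, the 1 listed gene of the 12, has a log2 value of -0.56 ± 0.26 (SE). That table lists 137 genes with a DESeq2 p before adjustment of up to 0.0499, so being listed there is not a call. Kcnh6 is the closest relative of Kcnh2 among the 12, an ERG-type channel as well, and it leaned the other way. It stood at 4.37, 4.61 and 7.47 CPM with VPA, at 8.19, 7.98 and 13.2 CPM with lithium and at 9.53, 8.90 and 15.0 CPM in control. VPA libraries of Kcnh6 lay below every control library, as for 11.4% of tested genes. The log2 fold change was -1.02 ± 0.31 (edgeR adjusted p = 0.067, not called). With the replicate block on all 9 libraries it was -1.03 at an edgeR adjusted p of 0.00513. DESeq2 also called it (adjusted p = 0.0257). Like Kcnh2, Kcnh6 was highest in replicate 3 of each group, and so was Kcnab3. Within replicates 1, 2 and 3 Kcnh6 differed by -1.04, -0.88 and -0.96 on the log2(CPM + 0.5) scale, opposite in sign to Kcnh2. These signs follow from VPA and control libraries not overlapping for either gene, so only the sizes add to the description.

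None of the 7 was called for lithium against control (edgeR adjusted p = 1 for each). For VPA against lithium, which shares the VPA libraries by which the genes were named, 2 were called higher, 2 lower and 3 did not pass in edgeR's test. Called higher were 45.3% of the named genes and 5.61% of all genes, and called lower 19.1% and 2.32%, so nothing is read from these counts. Not called were Cacna1d, Kcna4 and Kcnh6 (edgeR adjusted p = 0.276, 0.122 and 0.141). VPA and lithium libraries overlapped for Cacna1d and for Kcna4, so their rises over control were not clear of lithium. Kcnn4, called lower, lost its call without any 1 of the VPA or lithium libraries, without control 2 and with DESeq2, at adjusted p-values of 0.0514 to 0.141 in edgeR's fits and 0.0622 in DESeq2. The authors' deposited Cufflinks table names 1 further gene of the list without an identifier. The potassium channel beta subunit Kcne3 had 1.64 FPKM with VPA and 0.664 FPKM in control, in the authors' deposited table.

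**Figure D5:**
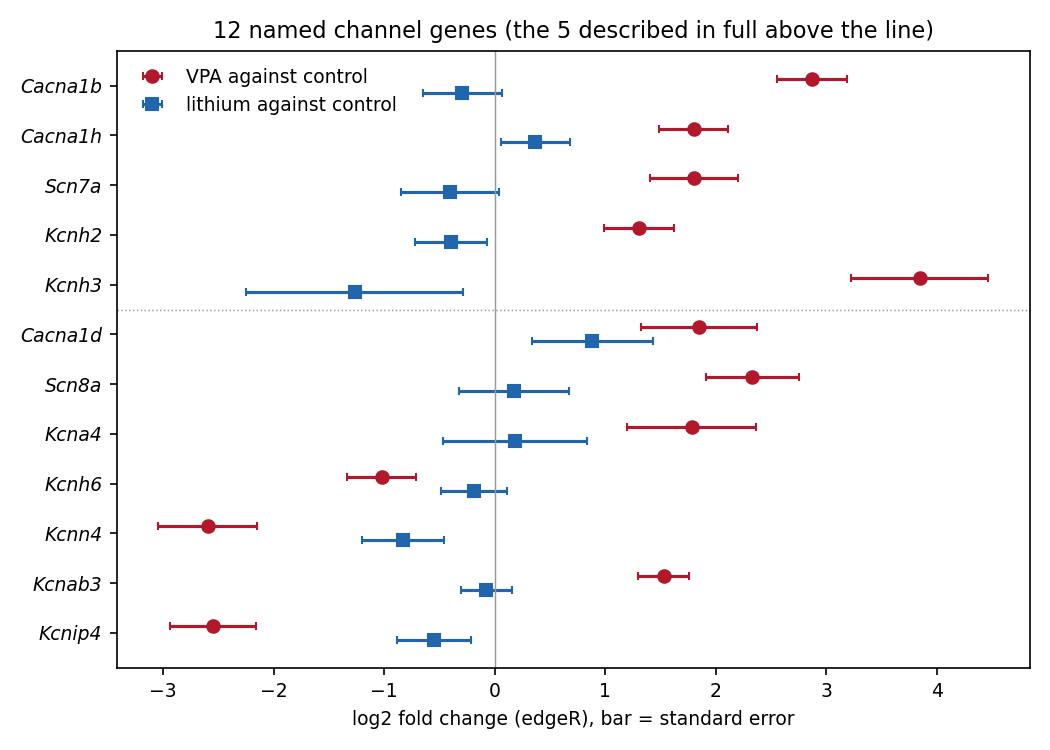
Fitted log2 fold change (x axis) with its SE for 12 named channel genes (rows), VPA against control and lithium against control. Above the dotted line are the 5 genes described in full, and below it Kcnh6, Kcnn4 and Kcnip4 lie on the negative side with VPA.

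Profiles over the 9 libraries were compared by root mean square distance of log2(CPM + 0.5), each gene centred on its own mean, among 1176 named genes of 1 CPM or more. Nearest to Cacna1b was Syt1 (0.17), the calcium sensor of vesicle fusion, which averaged 12.2 ± 0.843 CPM with VPA, 1.90 ± 0.375 CPM with lithium and 2.02 ± 0.628 CPM in control (SD, n = 3 each). Wnt6 followed at 0.22. Cacna1h lay nearest to the neuronal tubulin Tubb3 (0.20) and to the G protein subunit Gng7 (0.21), Scn7a to Astn1 (0.21) and Fzd4 (0.26), Kcnh2 to the proton-sensing receptor Gpr4 (0.16) and to Tspan7 (0.16), and Kcnh3 to Wnt6 (0.14) and the neurotrophin receptor Ngfr (0.18). Of these 10 pairs 3 were also found with an added 0.1 and 2 CPM, namely Cacna1b with Syt1, Scn7a with Astn1 and Kcnh2 with Tspan7. The candidates all carry names from the authors' tables of differing genes, so likeness is a description.

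Markers of cell types also differed between the groups. They carry a name only where the authors' tables of differing genes list them, so a difference with VPA follows from how they were named. As given above, 50.1% of all named genes were called higher with VPA than in control and 26.9% lower, against 5.71% and 2.99% of all genes tested. Of 18 neuronal markers 10 carried a name, and their summed level was 337 to 469 CPM with VPA, 136 to 174 CPM with lithium and 142 to 199 CPM in control. Uchl1, a neuronal deubiquitinase, made up much of that sum, at 192 ± 59.9 CPM with VPA, 92.3 ± 16.0 CPM with lithium and 104 ± 28.4 CPM in control (SD, n = 3 each). Among 9 of the 10 tested, 8 were called higher with VPA, and Uchl1 was not. Elavl3, a neuronal RNA-binding protein with too few counts to be tested, was at 0 in lithium 2 and control 2. For Schwann and glial cells 4 of 13 markers carried a name and summed to 55.9 to 65.1 CPM with VPA, 14.4 to 15.9 CPM with lithium and 11.1 to 16.9 CPM in control. Of these 3 were called higher with VPA and S100b lower, while Sox10, the lineage's defining factor, was at 0 in control 1. Of the fibroblast markers 6 of 10 carried a name, with sums of 470 to 741 CPM with VPA, 1212 to 2667 CPM with lithium and 1812 to 3644 CPM in control. S100a4 made up most of those sums, at 488 ± 152 CPM with VPA, 1665 ± 714 CPM with lithium and 2219 ± 1057 CPM in control (SD, n = 3 each). The collagen gene Col3a1 averaged 22.6 ± 5.98 CPM with VPA, 83.4 ± 27.3 CPM with lithium and 177 ± 93.0 CPM in control. Col1a1 averaged 50.1 ± 4.79 CPM with VPA, 86.0 ± 25.5 CPM with lithium and 164 ± 77.6 CPM in control. Of the 6, 5 were called lower with VPA than in control. Pdgfra, a growth factor receptor, was the exception, at 8.21 ± 1.35 CPM with VPA, 3.12 ± 0.654 CPM with lithium and 5.29 ± 1.30 CPM in control. Lum, a matrix proteoglycan, was at 0 in all 3 VPA libraries and in lithium 3. Named serotonergic markers were 2 of 15, Maob and Htr5b, summing to 6.96 to 9.75 CPM with VPA, 0.770 to 1.21 CPM with lithium and 1.09 to 1.63 CPM in control. The line's defining genes Tph2 and Slc6a4 carried no name and were not analysed here. From the muscle and endocrine list 1 of 12 was named, Cnn1, at 2.42 to 3.86 CPM with VPA, 0.526 to 0.848 CPM with lithium and 0.543 to 0.800 CPM in control. The part of these shifts in the channel values was not tested.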

How the data were processed

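Libraries of polyadenylated RNA (RIN above 7) kept no strand information, per the labels' protocols, so a gene and an overlapping neighbour cannot be told apart. The authors deposited raw counts per Ensembl gene for the 9 libraries. The submitters' processing notes list sleuth, DESeq2, Cufflinks 2.2.1, Salmon 0.6.1, kallisto 0.42.4, STAR 2.5.1 and CASAVA with no role for any. The genome build and annotation: not given in the sources used here. The authors deposited tables of log2 fold changes with standard errors, p-values, a test score and mean normalized counts (a signal) for 1212 genes, of FPKM with log2 ratios, p-values and q-values for 1097 genes, and of transcript effects on a natural log scale with p-values for 941 transcripts, per the file headers. Sleuth effects were taken as natural logs because, over 586 shared transcripts, their median ratio to log2 values of Cufflinks was 0.697. A table titled for kallisto repeats the DESeq2 table in all 1212 lines and was not used. Of the authors' lithium table only log2 values, standard errors, p-values and names were used, not its 6 columns of normalized counts. The count table has 0 lines that name no gene.

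The 12719 genes that passed filterByExpr with a minimum count of 10 were tested in edgeR 4.0.16 (R 4.3.3). Group means were fitted to all 9 libraries by robust quasi-likelihood after TMM scaling, and two-sided p-values were adjusted by Benjamini-Hochberg. Calls needed an adjusted p below 0.05. The SE is the log2 fold change over the square root of F. No pair of libraries within a group looked like a repeat (chi-square per degree of freedom 27.0 to 68.3).

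Same-numbered VPA and control libraries moved together around their group means (0.605, 0.532 and 0.526, Pearson correlation over 10288 genes of 5 CPM or more), so the title numbers were taken as pairs there. Lithium 1 and 2 did not follow controls 1 and 2 (-0.42 and -0.081), although lithium 3 followed control 3 (0.804), so lithium numbers were not taken as pairs.

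The members, lists and tests were chosen with earlier results of these data known. Named are the members, the other listed channel genes with a name (some listed genes are not reported here), and the 2 nearest profiles of each member. Alternatives were DESeq2 1.42.0, other scalings and filters, the replicate block, 2 groups alone and leaving out each library.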

Additional observations from a re-analysis of the deposited data

How the results depend on the processing

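The VPA estimates of the 5 channel genes kept their sign against control and against lithium in all 17 alternatives. Leaving out a library could not turn it, since every VPA library lay above every control and lithium library. The edgeR adjusted p is no test for genes chosen this way. Against control it rose above 0.05 for Kcnh2 without VPA 2, VPA 3, control 1 or control 2. It did so for Scn7a without VPA 1 or control 3, and against lithium for Cacna1h without VPA 2, lithium 1 or lithium 2. For VPA against control 1106 genes were called, 1741 with the replicate block, 2408 with the block on the 2 groups alone, 1533 with DESeq2 and 638 to 1026 when 1 library was left out. For VPA against lithium 1009 were called, 1609 with the replicate block, whose lithium numbers do not stand for pairs, and 544 to 1197 without 1 library. Lithium against control gave 0 calls throughout, and with those groups alone Kcnh3, Kcna4 and Scn8a had too few counts for a value. The replicate block changed the calls of Kcnh6 and Kcna4 against control, as given above, and of no other named channel gene in that comparison.

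Without 1 library, log2 fold changes over control ran from 2.62 to 3.02 for Cacna1b, 1.57 to 2.28 for Cacna1h, 1.49 to 2.00 for Scn7a, 1.11 to 1.61 for Kcnh2 and 3.34 to 4.75 for Kcnh3. Those over lithium ran from 3.00 to 3.43 for Cacna1b, 1.90 to 2.72 for Scn7a and 4.60 to 5.52 for Kcnh3. The cause of these shifts was not tested. With pseudocounts of 0.1 and of 2 CPM, 5 of the 10 nearest profiles were found again each time. At 4 counts with lithium and 9 in control, depth limits every estimate for Kcnh3.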
